A study of Homo sapiens with 4 samples.

Results

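The 77 genes described here carry a SNORA or SCARNA symbol as the single gene name of their probe set. They comprise 61 SNORA and 16 SCARNA genes among 18417 genes with such probe sets, and were read from 83 probe sets. Another 28 probe sets name a SNORA or SCARNA gene together with other genes, and were kept apart. Box H/ACA small RNAs fold into hairpins that base-pair with ribosomal RNA and direct the enzyme dyskerin to convert a chosen uridine into pseudouridine. SCARNA genes encode guides that act on spliceosomal small nuclear RNAs in the Cajal body, a nuclear compartment, and the symbol covers guides of the H/ACA type, of the C/D type that directs methylation, and of both. In human cells most of these RNAs are cut out of the introns of other genes, so that their transcription depends on the host gene.

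The arrays came from U266 multiple myeloma cells given 15 µM atovaquone for 2 h, U266 cells given the vehicle DMSO for 2 h, K562 chronic myeloid leukaemia cells given 20 µM atovaquone for 5 h, and K562 cells given DMSO for 5 h. Both are established lines, and atovaquone is an antimalarial that blocks complex III of the mitochondrial respiratory chain. Each group had 1 array, so no replicate error and no test exist, every ratio describes a pair of arrays, and dose and time differ between the lines. The line markers followed the labels: of 9 plasma cell genes, 5 had a vehicle ratio and all 5 were at least 2-fold higher in U266, 3 more had only bounds that were also higher in U266, and CD79A was below the floor in both lines. Of 8 erythroid genes, 5 had a vehicle ratio and 4 of these were at least 2-fold lower in U266, and the other 3 had bounds in that direction. Of 3 genes of other cell types, EPCAM was at least 5.87-fold lower in U266, and the T cell gene CD3E and the fibroblast gene COL1A1 differed by less than 2-fold.

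Values were read against a floor, the 40th percentile of intensity within an array, at 324 and 331 on the U266 atovaquone and vehicle arrays and at 306 and 305 on the K562 atovaquone and vehicle arrays. A gene is called measured where neither array of a comparison fell below its floor. Of the 77 genes, 53 and 48 reached the floor on the U266 atovaquone and vehicle arrays, and 43 and 46 on the K562 atovaquone and vehicle arrays. All 4 arrays detected 40 of them, and 21 lay under the floor on every array. RefSeq lengths had a median of 134 bases for the SNORA genes (123 to 236) and of 226.5 bases for the SCARNA genes (125 to 421). The labels name an RNeasy column in the RNA preparation, a step that keeps mainly longer RNA, and the array cannot tell a mature guide RNA from the intron of its host's precursor. As a rough yardstick of error within these arrays, the log2 ratio of a single probe set had an SD of 0.11 in U266 (340 genes with several probe sets) and of 0.12 in K562 (358 genes). For U266 vehicle over K562 vehicle that SD was 0.39 (306 genes). It leaves out the spread between cultures, and it pools genes of all intensities, so it may not hold for the members.

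In U266, SNORA29 had the highest ratio or bound of any member. Its intensity was 1508 with atovaquone and 228 with vehicle. The vehicle value lay below the floor, so the ratio is a bound of at least 4.59-fold higher with atovaquone, or a log2 ratio of 2.20. In K562 it had 160.45 with atovaquone and 271 with vehicle, both below the floor, so no ratio is given there. As in any bulk sample, fewer cells with an RNA and less of it per cell cannot be told apart. SNORA29 lies within TCP1, which encodes a subunit of the cytosolic chaperonin that folds actin and tubulin. A second guide RNA of the same gene, SNORA20, had 1027 with atovaquone and 665 with vehicle in U266, a ratio of 1.56-fold, and 321 with atovaquone and 312 with vehicle in K562. The TCP1 probe set itself had 6667 with atovaquone and 6099 with vehicle in U266, a log2 ratio of 0.14, and 6146 with atovaquone and 6471 with vehicle in K562, at −0.07. The readings of this locus thus gave U266 log2 ratios of at least 2.20, 0.64 and 0.14.

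**Figure D1:**
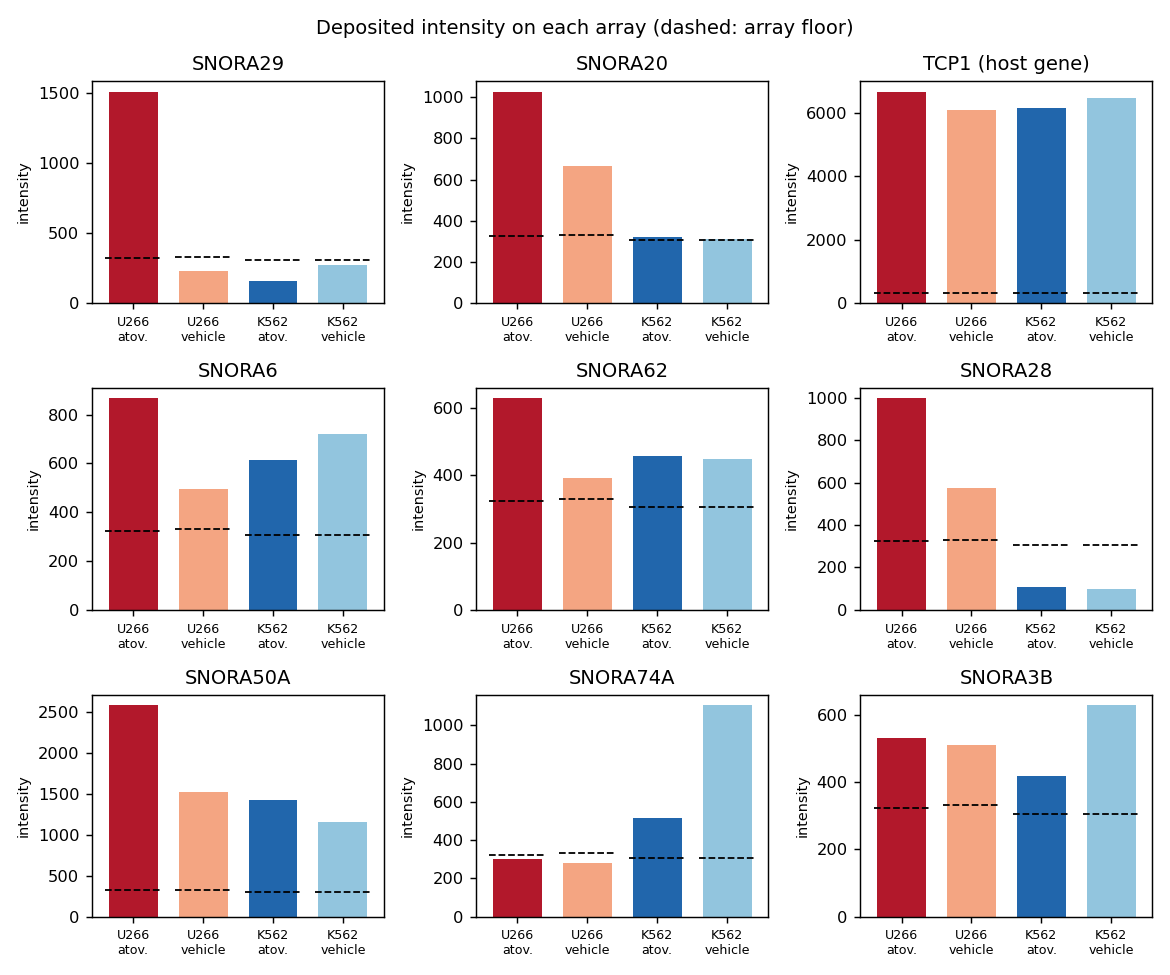
Deposited intensity (vertical axis, linear, each panel with its own scale) of 8 small RNA genes and of the host gene TCP1 on the 4 arrays, with the floor of each array dashed. SNORA29 stood at 1508 on the U266 atovaquone array and below the floor on the other 3, while SNORA74A stood at 517 on the K562 atovaquone array, against 1106 on the K562 vehicle array.

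Most other members were also higher with atovaquone in U266, by smaller amounts. Of 48 measured members, 42 had a log2 ratio above 0, where 50% of the 10731 measured genes did. At least 1.5-fold higher were 8 members, where 0.857% of all measured genes were, and 0 were at least 1.5-fold lower, against 0.0932% of all measured genes. The median log2 ratio of the members was 0.29, with quartiles at 0.16 and 0.36, beside a median of −0.00012 and quartiles at −0.08 and 0.08 over all measured genes. The members that did not exceed vehicle stayed close to it, SNORA2B at −0.18, SNORA10 at −0.13, SNORA65 at −0.10, SNORA57 at −0.10, SNORA55 at −0.04 and SNORA60 at −0.0068.

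Both guide RNAs of RPSA, a gene for a protein of the small ribosomal subunit, were among the 8. SNORA6 had an intensity of 867 with atovaquone and 494 with vehicle (1.76-fold), and SNORA62 had 629 with atovaquone and 391 with vehicle (1.62-fold). RPSA itself had no probe set of its own name. SNORA28, in the translation initiation factor gene EIF5, had 996 with atovaquone and 575 with vehicle (1.75-fold). SNORA50A, in CNOT1, the scaffold gene of the CCR4-NOT deadenylase, had 2579 with atovaquone and 1516 with vehicle (1.71-fold). Both host genes stayed level, with log2 ratios of −0.01 for EIF5 and 0.01 for CNOT1. A second CNOT1 guide, SNORA46, had 237 with atovaquone and 130.30 with vehicle, under the floor on both arrays. The remaining members of the 8 were SCARNA9L (852 with atovaquone and 549 with vehicle), SNORA20 (given above), SNORA70G (677 with atovaquone and 447 with vehicle) and SNORA75 (1544 with atovaquone and 1034 with vehicle). SNORA75 lies in NCL, which encodes nucleolin and had a log2 ratio of 0.10. Of the 5 bounds in U266, the 4 besides SNORA29 were at least 0.53 for SNORA70C, 0.41 for SNORA27, 0.34 for SNORA70E and 0.31 for SNORA15 on the log2 scale. SNORA27 had 436 with atovaquone and 299 with vehicle. Nearest outside the 1.5-fold limit was SCARNA4 at a log2 ratio of 0.52, next to SNORA75 at 0.59 inside it.

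The shift ran through the range of intensity. Members at 1 to 2 times the floor had a median log2 ratio of 0.32 (18 members), those at 2 to 4 times 0.27 (16 members), those at 4 to 8 times 0.25 (7 members) and those at 8 times or more 0.19 (7 members). All measured genes in the same 4 ranges had medians of −0.02, −0.00094, 0.01 and 0.02. Without a floor, 21 of the 24 members that lay below it on both U266 arrays also had a ratio above 0, with a median of 0.23. Over the 7153 genes below it on both arrays, 43.4% had a ratio above 0 and the median was −0.03. Box C/D genes, the methylation guides with SNORD symbols, had 45 of 54 measured genes above 0 and a median of 0.18, the same direction as the members in this line. At least 1.5-fold higher were 7 of these 54 (13%) and 0 were lower, beside 8 of the 48 members (16.7%), so the excess was not particular to the members. Among the 28 probe sets that name several genes, 23 were measured in U266 and 19 of them lay above 0, with a median of 0.26.

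In K562 the measured members spread to both sides of vehicle. Of 42 measured members, 26 had a log2 ratio above 0, where 48.9% of 10756 measured genes did, and the median was 0.06 with quartiles at −0.17 and 0.23. No member (0 of 42) was at least 1.5-fold higher, where 1.42% of all measured genes were, and 1 member was at least 1.5-fold lower, where 0.697% of all measured genes were. The values differed by range of intensity. At 8 times the floor or more, 9 of 9 members lay above 0 with a median of 0.23, and at 4 to 8 times 3 of 5 with a median of 0.03. At 2 to 4 times, 5 of 11 lay above 0 with a median of −0.21, and at 1 to 2 times 9 of 17 with a median of 0.03. The all-gene medians in these ranges lay between −0.01 and −0.00064. Box C/D genes had 21 of 57 measured genes above 0 in K562, a median of −0.18 and 9 at least 1.5-fold lower (15.8%). The member at least 1.5-fold lower was SNORA74A, known as U19, whose intensity was 517 with atovaquone and 1106 with vehicle, 2.13-fold lower. SNORA74A was below the floor on both U266 arrays, at 299.81 with atovaquone and 279 with vehicle. The shortest gene around it is SNHG4, a non-coding host, which had no probe set of its own. MATR3, an RNA-binding protein gene whose span also holds SNORA74A, had 3642 with atovaquone and 3719 with vehicle in K562, a log2 ratio of −0.03.

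Next in order were SNORA3B, which lies in the ribosomal protein gene RPL27A and had 418 with atovaquone and 628 with vehicle (log2 ratio −0.58, just short of the limit), and SNORA75 with 930.46 with atovaquone and 1280.13 with vehicle (−0.46). SNORA67 followed at −0.36, SNORA80E at −0.32 and SNORA21 at −0.32. SNORA3A, the other guide RNA of RPL27A, stood at 0.03 and RPL27A itself at 0.10. The members of one host thus differed by more than its own probe set moved. The 4 upper bounds, each for a member below the floor with atovaquone, were −0.16 for SNORA15, −0.14 for SNORA65, −0.08 for SNORA13 and −0.07 for SNORA80B. The floor sets their size, and without it the ratios were −0.50, −0.33, −0.46 and −0.35 in the same order.

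SCARNA genes were the members with the highest ratios in K562. Of 9 measured, 8 lay above 0 with a median of 0.30, whereas 18 of 33 measured SNORA genes lay above 0 with a median of 0.03. SCARNA9, a guide for U2 small nuclear RNA, had 1025 with atovaquone and 804 with vehicle (log2 ratio 0.36) on its brighter probe set. Its other probe set gave 0.10. SCARNA17 had 933 with atovaquone and 734 with vehicle (0.35), SCARNA16 had 947 with atovaquone and 756 with vehicle (0.33), and SCARNA10, the U85 guide for U5, had 571 with atovaquone and 456 with vehicle (0.33). SNORA37 and SNORA50A completed the 6 highest, at 0.32 for both. SCARNA1 had 347 with atovaquone and 229 with vehicle, below the floor, which gives a bound of at least 0.19, and 0.60 without the floor. In U266 all 12 measured SCARNA genes lay above 0, with a median of 0.32 and a range of 0.06 to 0.64. In K562 each of the 9 measured SCARNA ratios was under the 1.5-fold limit. In U266 SCARNA9L alone of the 12 passed it, and by its brighter probe set only.

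**Figure D2:**
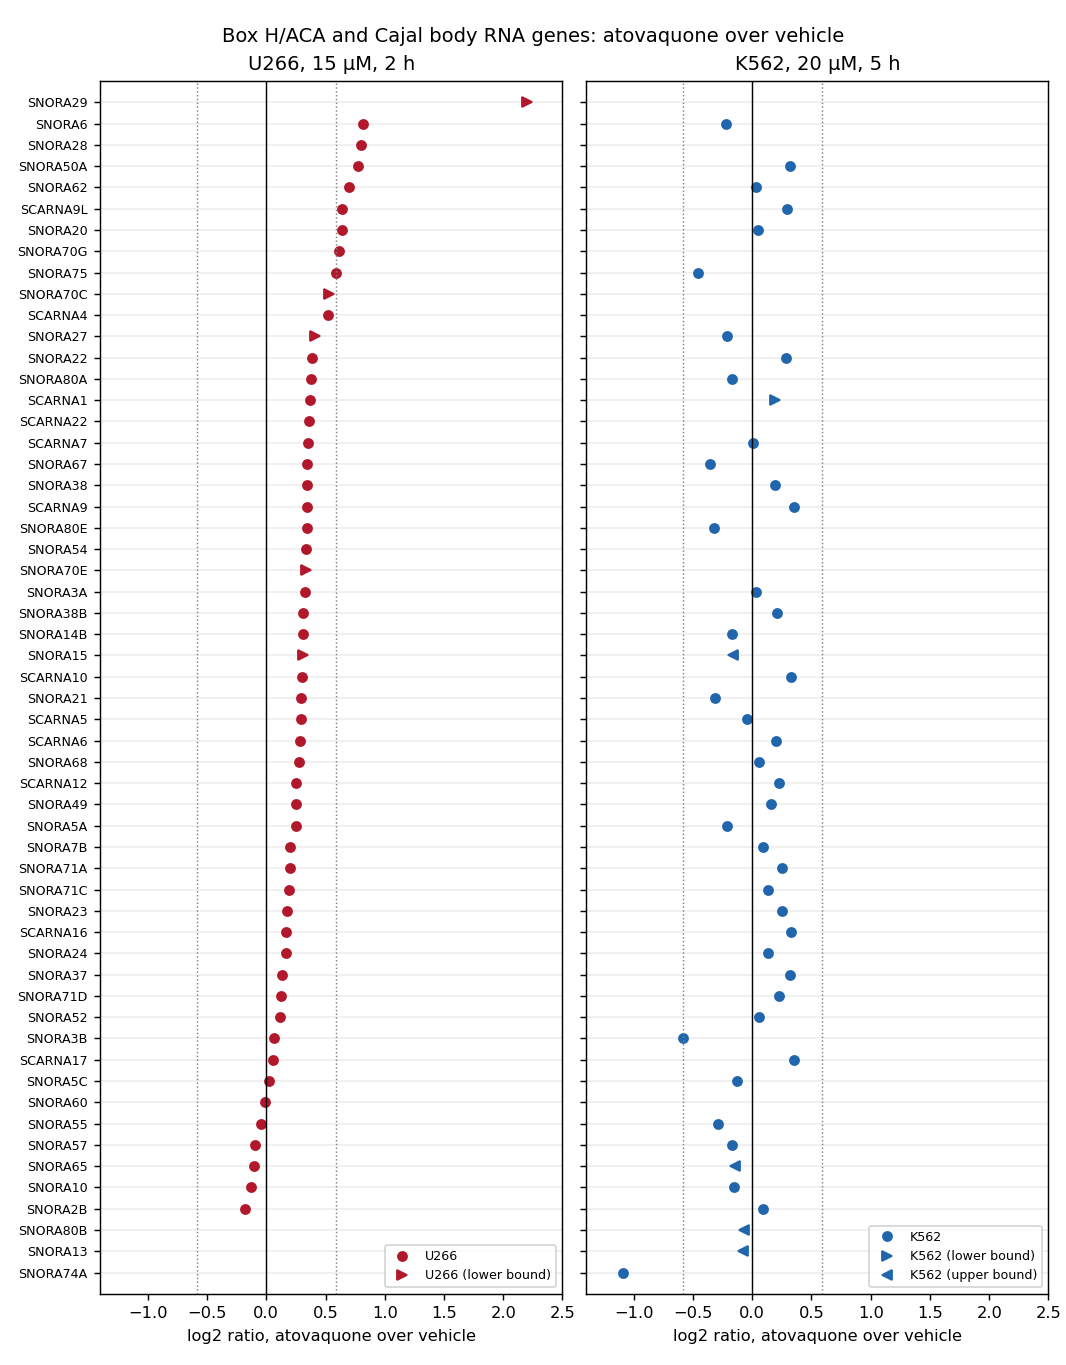
Log2 ratio of atovaquone to vehicle (horizontal axis) for each member with a ratio or a bound, in U266 on the left and K562 on the right. Circles are measured ratios, triangles are bounds that point the way the true ratio lies, dotted lines mark 1.5-fold, and rows are ordered by the U266 value. In U266 42 of 48 circles lie right of 0, and in K562 26 of 42.

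On the 40 members measured on all 4 arrays, 25 were above 0 in both lines, 11 in U266 alone, 1 in K562 alone and 3 in neither. The U266 ratio was the larger of the pair for 31 of the 40. SNORA6 stood at 0.82 in U266 and −0.22 in K562, SNORA75 at 0.59 in U266 and −0.46 in K562, and SNORA50A at 0.78 in U266 and 0.32 in K562. Since dose and time differ between the lines, no difference between them was tested.

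Most of the host genes themselves differed little between atovaquone and vehicle. RefSeq gene spans placed all 77 members inside a longer gene, without regard to strand, and 11 of them inside several. In that case the shortest was taken. Of 47 host genes on the array, 46 were measured in U266, with a median log2 ratio of 0.04 and 31 above 0, and 44 in K562, with a median of −0.07 and 18 above 0. In U266 34 pairs of small RNA and host had both values, and the small RNA had the higher ratio in 28, with medians of 0.30 for the small RNAs and 0.06 for the hosts. In K562 the small RNA was higher in 17 of 28 pairs, with medians of 0.09 for the small RNAs and −0.08 for the hosts. Across pairs, Spearman's rho between the ratios was −0.36 in U266 and −0.03 in K562, given as a description, since pairs of one host share a value and the host ratios covered a narrow range. The 34 U266 pairs drew on 29 host genes. They leave out the hosts with the highest U266 log2 ratios, RAB30 at 1.36 and the non-coding gene EPB41L4A-AS1 at 0.52. In U266 SNORA70E, within RAB30, had only a bound, and SNORA13, within EPB41L4A-AS1, was below the floor on both arrays.

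Grouped by host, the 9 measured members in RPL or RPS genes had a U266 median of 0.27, with 7 above 0, while 5 of these host genes had ratios of 0.05 to 0.11. The 3 in EIF or EEF genes had a median of 0.64, the 10 in non-coding genes 0.18 and the 26 in other protein-coding genes 0.32. These classes follow the shortest span without regard to strand, so some members may be misplaced. SNORA55 and SNORA14B, counted under non-coding genes, also lie within PABPC4 and TOMM20. SNORA71D, counted under other protein-coding genes, also lies within SNHG17. In K562 the medians were −0.15 for members in RPL or RPS genes (9 members), 0.13 for those in non-coding genes (10 members) and 0.16 for those in other protein-coding genes (21 members). The EIF or EEF group had 2 measured members there, SNORA67 at −0.36 and SCARNA9L at 0.30.

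**Figure D3:**
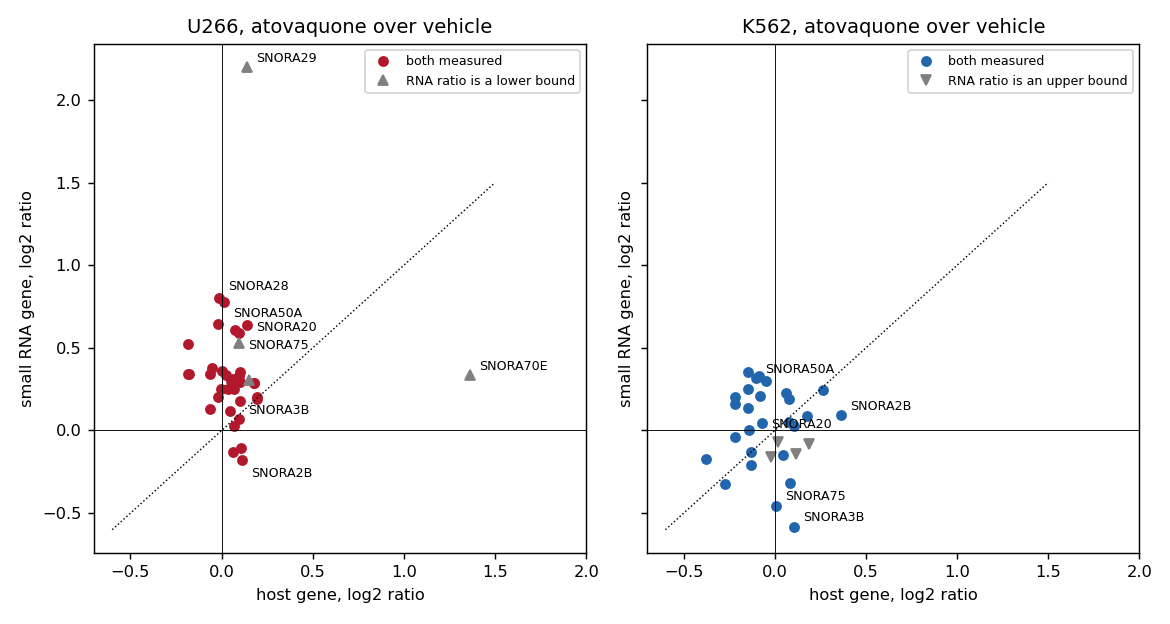
Log2 ratio of atovaquone to vehicle of each small RNA gene (vertical axis) against that of its host gene (horizontal axis), in U266 on the left and K562 on the right. Grey triangles are members with a bound and the dotted line marks equal ratios. In U266 28 of 34 points with both values lie above the line, and SNORA29 lies at a host ratio of 0.14.

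SNORA70 copies scattered through the genome made up the largest family here, with 6 genes, and their near-identical sequences mean that their probe sets may share signal. All 6 copies were higher with atovaquone in U266 when the floor was ignored, with log2 ratios of 0.29 to 0.93. SNORA70E had 414 with atovaquone and 219 with vehicle, SNORA70C had 474 with atovaquone and 278 with vehicle, and SNORA70G had 677 with atovaquone and 447 with vehicle. SNORA70B, SNORA70D and SNORA70F were under the floor on both arrays. RAB30, the small GTPase gene that holds SNORA70E, was the one host gene at least 1.5-fold higher in U266, with 2439.53 with atovaquone and 954 with vehicle (log2 ratio 1.36). ASTN2, RAP1B and USP34, hosts of SNORA70C, SNORA70G and SNORA70B, had log2 ratios of 0.10, 0.07 and 0.04. In K562 all 6 copies were under the floor on both arrays. SNORA71A and SNORA71C lie in the non-coding gene SNHG17, and had log2 ratios of 0.20 and 0.19 in U266 and of 0.25 and 0.13 in K562. SNHG17 itself stood at 0.20 in U266 and −0.15 in K562. SNORA71D stood at 0.12 in U266 and 0.23 in K562.

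Members with several probe sets give a second reading of the same gene. SCARNA9 gave U266 log2 ratios of 0.46 and 0.34 and K562 log2 ratios of 0.10 and 0.36. SCARNA9L gave 0.64 and 0.43 in U266 and 0.30 and 0.07 in K562. Its second U266 reading was under the 1.5-fold limit, and with the mean of the probe sets 7 members passed that limit in U266. SCARNA17 gave 0.13 and 0.06 in U266 and 0.42 and 0.35 in K562. SNORA15 had 3 probe sets, all under the floor with U266 vehicle and with K562 atovaquone, of which 2 had the same values on every array and count as 1 reading. Without the floor its 2 readings gave 0.65 and 0.49 in U266. SNORA10 had 2 probe sets with the same values on every array, again 1 reading. SNORA15 lies in CCT6A, another chaperonin subunit gene, whose U266 log2 ratio was 0.15.

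An intronic guide RNA is transcribed from its host's promoter. Promoters are shown for host genes picked with the values known: TCP1 (SNORA29 and SNORA20), RPSA (SNORA6 and SNORA62) and SNHG4 (SNORA74A). EIF5 and CNOT1 are not shown, although their guides SNORA28 and SNORA50A had higher U266 ratios than SNORA62 and SNORA20. Each promoter shown is the RefSeq window from 250 bases before to 50 bases after the gene start. It reads 5′ to 3′ on the gene's strand, in build GRCh38.p14. TCP1 is at chr6:159789553-159789852 on the minus strand, RPSA at chr3:39406470-39406769 on the plus strand and SNHG4 at chr5:139273851-139274150 on the plus strand. Capitals mark GAANNTTC or TTCNNGAA, the paired units of the heat shock element, each of which reads the same on both strands.
TCP1: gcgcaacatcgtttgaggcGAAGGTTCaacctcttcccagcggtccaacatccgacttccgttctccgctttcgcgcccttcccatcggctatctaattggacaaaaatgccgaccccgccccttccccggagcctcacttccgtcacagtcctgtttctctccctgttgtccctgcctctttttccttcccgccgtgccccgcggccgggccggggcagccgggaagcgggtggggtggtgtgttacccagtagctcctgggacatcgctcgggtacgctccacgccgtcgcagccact
RPSA: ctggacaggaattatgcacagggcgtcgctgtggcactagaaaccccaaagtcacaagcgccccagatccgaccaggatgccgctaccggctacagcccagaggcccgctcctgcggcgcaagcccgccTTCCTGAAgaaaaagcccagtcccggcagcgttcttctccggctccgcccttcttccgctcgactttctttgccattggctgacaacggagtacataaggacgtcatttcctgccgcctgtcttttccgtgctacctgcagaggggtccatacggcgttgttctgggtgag
SNHG4: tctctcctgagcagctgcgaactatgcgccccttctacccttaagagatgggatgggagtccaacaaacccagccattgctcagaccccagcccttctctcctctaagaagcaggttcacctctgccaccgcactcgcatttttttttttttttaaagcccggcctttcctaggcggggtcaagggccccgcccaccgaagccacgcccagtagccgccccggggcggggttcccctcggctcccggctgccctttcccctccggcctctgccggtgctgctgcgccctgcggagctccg
TCP1 holds GAANNTTC 231 bases upstream of its start, RPSA holds TTCNNGAA 121 bases upstream, and neither is in the SNHG4 window. Of 27305 gene windows of this length, 13.7% hold one or the other, and 10 of 55 host gene windows do (18.2%), so a match is common and describes letters only.

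Genes for the proteins that bind these RNAs were close to their vehicle intensity in both lines. The H/ACA core proteins are dyskerin (DKC1), which carries the pseudouridine synthase activity, and its partners NHP2, NOP10 and GAR1. DKC1 had 2819 with atovaquone and 2734 with vehicle in U266, and 2038 with atovaquone and 2279 with vehicle in K562. The 4 core genes lay between −0.05 and 0.05 in U266 and between −0.16 and 0.11 in K562 on the log2 scale. Assembly factor genes NAF1, SHQ1, RUVBL1 and RUVBL2 had log2 ratios of 0.15, 0.09, 0.06 and 0.0055 in U266 and of −0.23, −0.25, −0.09 and 0.00064 in K562. None of these 8 genes was at least 1.5-fold different in either line (0 of 8). Of all measured genes, 0.857% were higher and 0.0932% lower by that fold in U266, and 1.42% and 0.697% in K562. So few genes pass the limit that 0 of 8 does not set these genes apart.

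Among 8 Cajal body and telomerase genes with a probe set, 0 were at least 1.5-fold different in either line, where few of all measured genes were (shares given above). SMN1 had no probe set of its own name. TERC, the telomerase RNA, which itself carries an H/ACA domain, had 2651 with atovaquone and 2287 with vehicle in U266 (log2 ratio 0.22), and 1107 with atovaquone and 1024 with vehicle in K562 (0.12). The telomerase enzyme gene TERT stood at 0.13 in U266 and 0.11 in K562. COIL, which encodes the Cajal body scaffold coilin, stood at −0.03 in U266 and 0.18 in K562, and WRAP53, whose product carries SCARNAs to the Cajal body, at 0.0096 in U266 and −0.35 in K562. NOLC1, a nucleolar and Cajal body phosphoprotein gene, stood at 0.07 in U266 and −0.08 in K562, and SART3, a U6 recycling factor gene, at 0.24 in U266 and −0.23 in K562. GEMIN2 and GEMIN5, genes of the SMN complex that assembles spliceosomal particles, stood at 0.24 and 0.04 in U266 and at 0.56 and −0.45 in K562. Of 7 genes for trimming RNA 3′ ends, all 7 were below 0 in K562, with a median of −0.18, where 48.9% of all measured genes were above 0. At least 1.5-fold lower was 1 of the 7, where 0.697% of all measured genes were, the deadenylase gene TOE1, with 1411 with atovaquone and 2214 with vehicle (log2 ratio −0.64). The others in K562 were PARN at −0.0055, TENT4A at −0.32, TENT4B at −0.18, EXOSC10 at −0.04, DIS3 at −0.33 and MTREX at −0.07. In U266 these 7 lay between −0.03 and 0.16.

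At baseline, the ratios of the members between the vehicle arrays of the lines lay on both sides of 0, without a common direction. Of 41 members measured on both, 24 had a log2 ratio of U266 vehicle to K562 vehicle above 0, where 49.5% of 9483 measured genes did, and the median was 0.09. At least 2-fold higher in U266 were 5 members (12.2%), against 7.97% of all measured genes, and 5 were at least 2-fold lower (12.2%), against 6.97%. Counts this small cannot be told apart from those shares, and SCARNA9L, among the lower, depends on its probe set. Box C/D genes had a median of −0.40, with 9 of 46 measured genes above 0, 0 at least 2-fold higher and 2 at least 2-fold lower.

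SNORA37 had the highest ratio, with 1183 in U266 and 345 in K562 (3.48-fold), and its host MBD2, a gene for a methyl-CpG binding protein, had a log2 ratio of 0.92. SCARNA17 had 2085 in U266 and 734 in K562 (2.89-fold), and SNORA7B had 1409.56 in U266 and 502 in K562 (2.85-fold), beside a log2 ratio of 1.08 for its host, the pseudogene RPL32P3. SCARNA10 had 984 in U266 and 456 in K562 (2.20-fold), and SNORA20 had 665 in U266 and 312 in K562 (2.17-fold), while their hosts NCAPD2 and TCP1 stood at −0.31 and −0.06. The K562 values of SNORA20 and SNORA37 lay close to the floor of 305 on that array, so the size of these ratios is uncertain. SCARNA9 completed the 6 highest at 1.85-fold. SNORA28 was below the floor in K562, with 575 in U266 and 97 in K562, and was at least 1.91-fold higher in U266. Bounds of at least 1.49-fold for SNORA70G and 1.45-fold for SCARNA1 ran the same way. TERC was 2.27-fold higher in U266.

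SNORA57 had the lowest ratio, with 407 in U266 and 1370.11 in K562 (log2 ratio −1.73). SNORA74A was below the floor in U266, with 279 in U266 and 1106 in K562, which bounds the log2 ratio at −1.72 or lower. The other bounds in that direction were −0.51 for SNORA27 and −0.03 for SNORA15. SCARNA9L stood at −1.36, SNORA10 at −1.09, SNORA21 at −1.09, SNORA67 at −1.04 and SCARNA7 at −0.74. SCARNA9L rests on 1 of its 2 probe sets, which gave −1.36 and 0.06, and the 2 probe sets of SCARNA9 gave −0.24 and 0.89, so the direction for both genes depends on the probe set. The hosts of SNORA10 and SNORA21, RPS2 and RPL23, had log2 ratios of −0.47 and −0.36. Across 29 pairs with both values, Pearson's r between small RNA and host was 0.50 and Spearman's rho 0.38, as a description over pairs that share arrays and in part host genes.

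**Figure D4:**
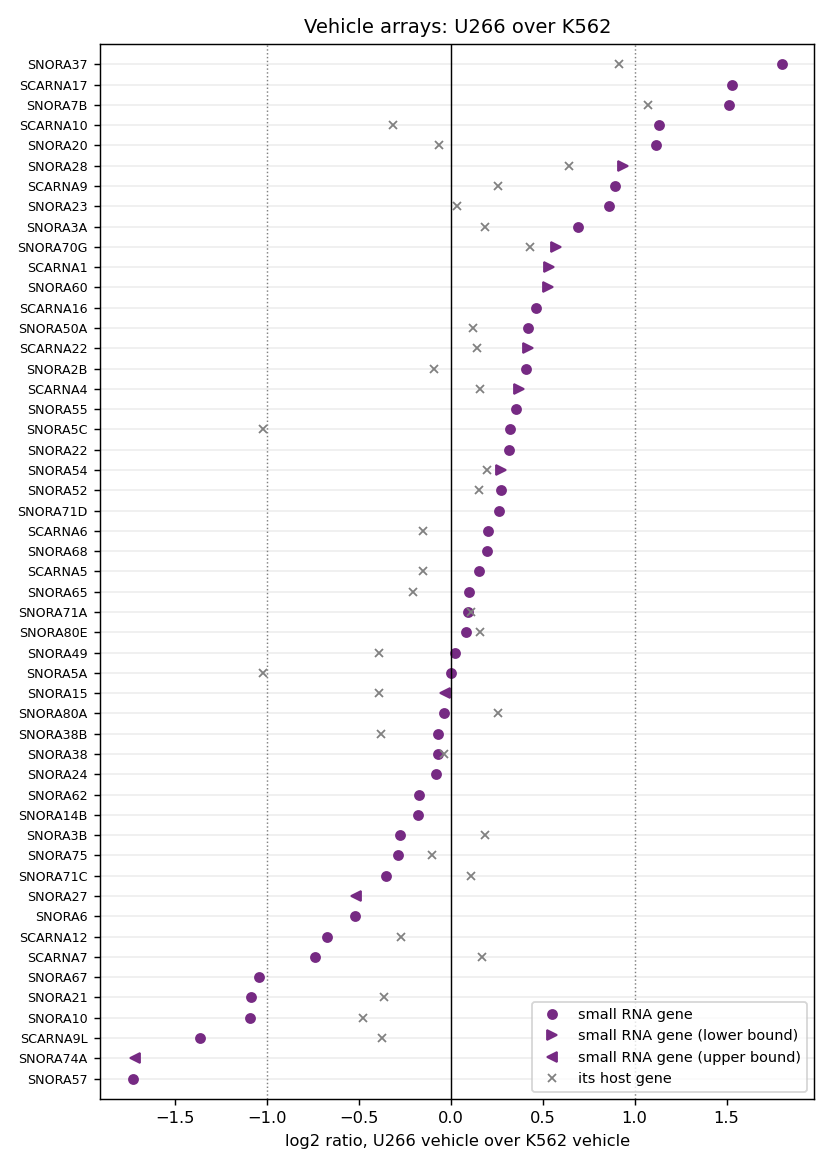
Log2 ratio of the U266 vehicle array to the K562 vehicle array (horizontal axis) for each member with a ratio or a bound. Circles are measured ratios, triangles are bounds, grey crosses are the measured host genes and dotted lines mark 2-fold. SNORA37 is highest at 1.80 with its host at 0.92, and SNORA57 is lowest at −1.73.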

How the data were processed

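The deposited values are the authors' processed intensity of each probe set on a linear scale, for 33252 probe sets on 4 arrays of biotin-labelled cRNA, per the labels. The sources used here do not give the software, background correction or normalisation, and the number of arrays limits the precision. The probe annotation lists 21214 probe sets, 19460 of them with 1 symbol, and gene values came only from these 19460. Where a gene had several, its brightest by mean log2 intensity was taken. Floors and centring used all listed probe sets. Probe sets that name several genes were summarised apart, and an alternative used them for host genes. Values below an array's 40th percentile over listed probe sets were raised to that floor, and a gene below it on 1 array has only a bound, the brighter value over the higher of floor and own value. Each set of log2 ratios was centred by subtracting its median over measured probe sets, which was −0.0096 for U266, −0.0048 for K562 and −0.02 between vehicle arrays. Members were counted at 1.5-fold for atovaquone and 2-fold between lines. Host genes came from RefSeq spans (GRCh38.p14). The reference gives no strand for the small RNAs, so the planned strand condition was dropped. All 77 members matched RefSeq by Entrez identifier. Of 67 host genes, 55 have a RefSeq promoter window.

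Named were the 6 highest and 6 lowest measured ratios per comparison, up to 3 bounds per direction, members with several probe sets, their hosts and the partner lists. SCARNA4, SNORA46, SNORA80B and the SNORA70, SNORA71 and SNORA3 copies outside this rule were named after their values were seen. Members and lists were chosen with earlier results of these data known. The calculation, in Python 3.11.15 with pandas 2.3.3 and numpy 2.4.6, was tested on simulated data. Alternatives changed the normalisation, the floor, the choice of probe set and the fold.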

Additional observations from a re-analysis of the deposited data

Results flagged for a closer look

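SNORA29 had ratios of opposite sign in the 2 lines, each beyond 1.5-fold when the floor was ignored, with a log2 ratio of 2.73 in U266 and of −0.75 in K562. The difference between the lines was not tested, the doses and times differ, and both K562 values lay below the floor.

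Of the probe sets that name a SNORA or SCARNA gene together with other genes, which none of the counts above use, 3 of 23 measured were at least 1.5-fold higher with atovaquone in U266 and 0 were lower, where 0.857% and 0.0932% of all measured genes were. In K562 1 was higher and 2 were lower of 24 measured, where 1.42% and 0.697% of all measured genes were.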

How the results depend on the processing

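The number of members counted depended on the floor. In U266 the number at least 1.5-fold higher was 8, and it was 1 under a floor at the 60th percentile (SNORA50A), 15 with no floor and 0 at a 2-fold limit. The number above 0, 42 of 48, was 22 of 24 at the 60th percentile and 69 of 77 with no floor. In K562 the number at least 1.5-fold lower was 1, and it was 2 without centring, 2 under a 20th percentile floor, 2 with no floor and 0 at the 60th percentile, while the number higher was 0, and 1 under a 20th percentile floor and 1 with no floor (SCARNA1 in both, at 0.61). The number above 0, 26 of 42, was 17 of 23 at the 60th percentile and 44 of 77 with no floor. Between the vehicle arrays the 5 higher were 1 at the 60th percentile and 8 at a 1.5-fold limit, and the 5 lower were 1 at the 60th percentile and 3 with genes of a single probe set. The number above 0, 24 of 41, was 12 of 19 at the 60th percentile and 44 of 77 with no floor. The median of small RNA minus host in K562 was 0.13, and 0.00076 under a 20th percentile floor.

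Under the 60th percentile floor, SNORA29 in U266 was bounded at 1.17 and SNORA74A in K562 at −0.75, and bounds move with the floor by construction. Measured U266 ratios also became bounds there, 0.37 for SNORA6, 0.57 for SNORA28 and 0.34 for SCARNA9L. Between vehicle arrays SNORA37 was then bounded at 0.91 and SNORA57 at −0.99. With the mean of the probe sets, SCARNA9 in K562 was 0.23. Over all alternatives, 28 values of single named members moved by at least 1 SD of a probe set, and 284 did not. The other 97 values of counts and medians stayed within 1.5 times for a count or 1 SD of a probe set for a median. No median changed sign, and a count has no sign to change. That SD is wide beside some medians: between vehicle arrays it was 0.39, and the median was 0.09. The K562 median of 0.06 was 0.16 at the 60th percentile, still within 1 SD. Centring cancels in small RNA minus host. Pairs limited to members in 1 gene span were added after seeing the data. They were the same 34, 28 and 29 pairs, so they could not differ. No paired analysis was possible because each group has 1 array, and no replicate could be left out.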
